A study of Homo sapiens with 12 samples.

Results

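Of 58721 genes counted in a ribosome profiling experiment on IGF2BP3, an RNA-binding protein, 9 were followed here: SIK1, SIK2, SIK3, CPEB2, CPEB3, CPEB4, FRK, NABP1 and LMBR1L. They were found by their GENCODE symbols. SIK1, CPEB4, FRK, NABP1 and LMBR1L were chosen on these same libraries, for a large fall in ribosome footprints or in the ratio of footprints to transcript after knockdown. Their changes are therefore given as a description, with no test. SIK2, SIK3, CPEB2 and CPEB3 were listed as their paralogues, whatever their values, and were tested. All 9 passed the filter on low counts in each comparison.

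The cells were HepG2, a human liver cancer cell line. They were collected 2 days after a transient knockdown with an siRNA against IGF2BP3 (siIGF2BP3) or with a control siRNA (siControl), with 1 siRNA label per condition. Before lysis every culture received 100 µg/mL cycloheximide, which stalls elongating ribosomes, for 4 min. The lysate was treated with RNase I for 45 min and ribosome-protected fragments (RPF) of 28 to 30 nt were taken by gel. Input libraries report transcript abundance, though the labels attach the same footprint protocol to them and do not describe their own. Each of the 4 groups (siControl Input, siControl RPF, siIGF2BP3 Input, siIGF2BP3 RPF) held 3 libraries, and no label says that these came from separate cultures, so p-values measure the spread between libraries, which may be technical.

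SIK1, SIK2 and SIK3 are the salt-inducible kinases, AMPK-related enzymes that LKB1 (STK11) switches on and protein kinase A restrains. They phosphorylate the CRTC coactivators of CREB and class IIa histone deacetylases and so hold them in the cytoplasm. In liver cells they restrain the gluconeogenic programme that glucagon turns on. The CPEB proteins bind the cytoplasmic polyadenylation element in 3′ untranslated regions and control poly(A) tail length and translation. FRK is a tyrosine kinase related to Src, NABP1 is a single-strand DNA binding protein of the SOSS complex in the DNA damage response, and LMBR1L is a membrane protein of the LMBR1 family that acts in Wnt signalling.

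The libraries held 11219750 to 31510601 counts. IGF2BP3 itself lay at 127 to 133 CPM (counts scaled to a library total of 1000000) in siControl Input and 97.9 to 105 CPM in siIGF2BP3 Input, and at 74.6 to 78.1 CPM and 21.9 to 28.0 CPM in the RPF libraries. The 7 hepatocyte and HepG2 markers ranged from 119 to 23215 CPM in Input, while the 6 markers of other cells did not exceed 1.98 CPM. Replicates 2 and 3 of siControl RPF differed by less than the sampling noise (mean chi-square per gene 0.941, where counting noise gives about 1). Their average stands for 1 sample in means and SDs, so that siControl RPF has n = 2. The tests in RPF and TE kept them as separate libraries. Their SEs, intervals and adjusted p therefore count replicates 2 and 3 as independent and may be too narrow or too low. Replicate 1 of siIGF2BP3 RPF stood apart from its group (mean chi-square 19.9 and 21.5 against replicates 2 and 3, which gave 1.15 against each other), so results in RPF are also given without it. The 2 libraries left then differ by little more than counting noise. The SEs, adjusted p and counts of those fits may therefore measure a technical spread and are not a cleaner estimate.

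SIK1 has to be read together with a copy of itself. The deposited counts list SIK1 on chromosome 21 at 43414483 to 43427189 (hg38, minus strand) and a further gene, ENSG00000275993, on the same chromosome at 6111134 to 6123739 (plus strand). GENCODE types the latter as an artifact and names SIK1 as the real copy. The first coding bases are shown because they are the same at both loci, so that a footprint over them has no unique place. The start codon is in capitals.
SIK1 at chr21:43426151-43426178, minus strand: ATGgttatcatgtcggagttcagcgcgg
Copy of SIK1 at chr21:6112084-6112111, plus strand: ATGgttatcatgtcggagttcagcgcgg
Of 1998 windows of 28 bases within the coding exons of SIK1, 1966 (98.4%) occur elsewhere in hg38, and 12 of its 13 coding exons lie whole in the copy. The same search found 1 such window for SIK2, 4 each for SIK3 and CPEB2, 5 for CPEB3 and 0 for CPEB4, FRK, NABP1 and LMBR1L.

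The footprint counts followed this identity. SIK1 had 799.5, 544.11 and 525 counts in siControl RPF replicates 1, 2 and 3, and the copy had 801.5, 545.11 and 526.5. In siIGF2BP3 RPF the pairs were equal, at 211, 278.5 and 304.5 counts at each locus. The footprints were thus divided evenly between the loci, and the footprints deposited under SIK1 are a part of those that fit its sequence. The Input reads were not divided evenly: SIK1 was at 28.9 to 33.2 CPM and the copy at 42.2 to 53.2 CPM in siControl Input. Levels and ratios of SIK1 are for this reason also given as the sum of both loci, and the 2 rows are 1 measurement and not 2 genes that moved together.

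SIK1 footprints were at 0.521 of their siControl level after knockdown, while its Input levels overlapped between conditions. SIK1 was at 30.3, 33.2 and 28.9 CPM in siControl Input against 26.1, 30.9 and 29.9 CPM in siIGF2BP3 Input. In RPF it was at 25.4, 25.5 and 24.6 CPM with siControl against 16.2, 11.5 and 11.9 CPM with siIGF2BP3. The 3 siIGF2BP3 RPF libraries all lay below siControl, and replicate 1, the library that stood apart, was the highest of them. The log2 fold change was -0.14 ± 0.08 (SE) in Input and -0.94 ± 0.13 (SE) in RPF, and without that library the RPF value was -1.11 ± 0.05 (SE). With the counts of both loci added it was -0.93 in RPF and -0.12 in Input. These are bulk measurements of a culture, in which fewer cells with footprints on a transcript and fewer footprints per cell cannot be told apart.

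CPEB4 was the most abundant of the 3 tested CPEB transcripts in siControl Input, at 5.51 CPM per kilobase of exon against 1.199 for CPEB2 and 0.595 for CPEB3, and carried few footprints for its level. It was at 56.8, 60.8 and 52.2 CPM in siControl Input against 49.6, 56.1 and 53.7 CPM in siIGF2BP3 Input. Its footprints were at 11.0, 11.998 and 11.7 CPM with siControl against 5.22, 5.99 and 7.06 CPM with siIGF2BP3, 2 ranges with a wide gap between them. The log2 fold change was -0.14 ± 0.07 (SE) in Input and -0.89 ± 0.10 (SE) in RPF, or -0.82 ± 0.09 (SE) in RPF without siIGF2BP3 replicate 1.

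FRK had more footprints for its transcript level than CPEB4, and they were lower after knockdown to a like extent. FRK was at 19.2, 15.3 and 18.3 CPM in siControl Input against 16.1, 18.3 and 16.3 CPM in siIGF2BP3 Input. Its footprints were at 16.4, 16.5 and 16.9 CPM with siControl against 7.98, 10.3 and 9.38 CPM with siIGF2BP3. The Input ranges overlapped and the footprint ranges did not. The log2 fold change was -0.10 ± 0.10 (SE) in Input and -0.82 ± 0.08 (SE) in RPF, or -0.76 ± 0.06 (SE) without siIGF2BP3 RPF replicate 1.

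NABP1 and LMBR1L differed from these 3 genes in their transcript. The selection asked for little Input change, but both were higher in Input after knockdown, and their ratio change includes that rise. NABP1 was at 15.6, 18.8 and 17.8 CPM in siControl Input against 24.9, 23.4 and 19.9 CPM in siIGF2BP3 Input. Its footprints were at 6.82, 6.26 and 5.93 CPM with siControl against 3.64, 4.62 and 4.61 CPM with siIGF2BP3. The log2 fold change was 0.33 ± 0.10 (SE) in Input and -0.52 ± 0.10 (SE) in RPF.

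LMBR1L was at 12.2, 13.1 and 12.3 CPM in siControl Input against 12.5, 17.5 and 18.1 CPM in siIGF2BP3 Input. Replicate 1 of siIGF2BP3 Input lay within the siControl range and the other libraries of that group above it. Footprints of LMBR1L were at 7.20, 7.73 and 5.997 CPM with siControl against 4.68, 5.45 and 4.83 CPM with siIGF2BP3. The log2 fold change was 0.31 ± 0.12 (SE) in Input and -0.47 ± 0.11 (SE) in RPF. Without siIGF2BP3 RPF replicate 1 the RPF values were -0.47 ± 0.08 (SE) for NABP1 and -0.45 ± 0.11 (SE) for LMBR1L.

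**Figure D1:**
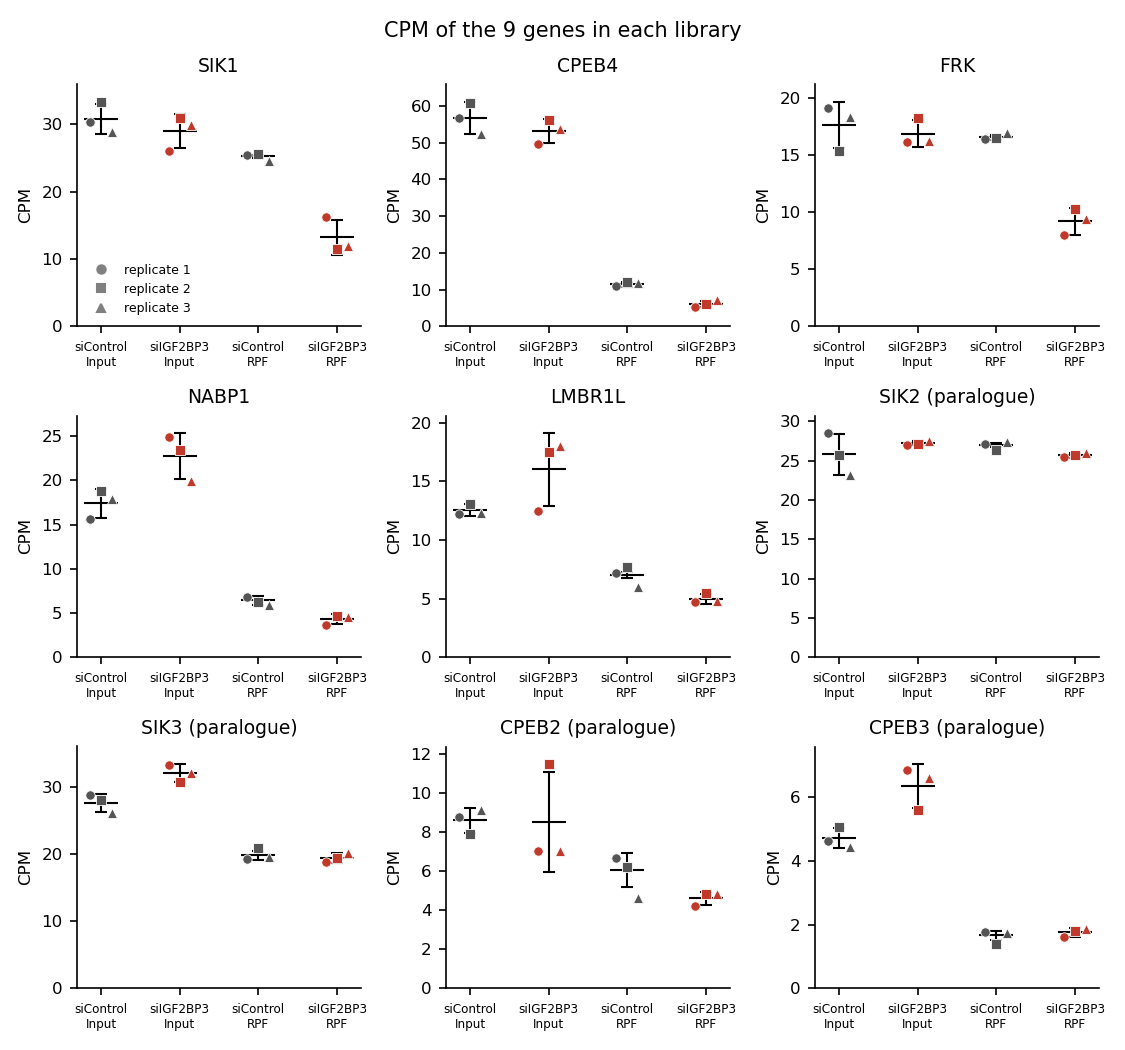
CPM (y axis, from 0) of each gene in the 12 libraries, in the groups siControl Input, siIGF2BP3 Input, siControl RPF and siIGF2BP3 RPF (x axis), with a symbol per replicate number and black bars for mean ± SD (siControl RPF replicates 2 and 3 counted as 1 sample). Red RPF points lie below the gray ones in all 5 chosen genes, and NABP1 is higher in siIGF2BP3 Input.

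All 5 chosen genes had the 3 siIGF2BP3 RPF libraries below the 3 siControl RPF libraries. The same held for 14.8% of the 20192 genes tested in RPF, and for 1 of the 4 paralogues, SIK2. Because the falls chose the genes, nothing is read from that count.

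The ranks of the 5 genes are given as a description, since they rest on the values that chose them. By RPF fall, SIK1, CPEB4 and FRK ranked 4, 5 and 6 among 13076 genes with a mean of at least 5 CPM in RPF. Ahead of them stood a processed pseudogene (-2.58, ENSG00000235008), IGF2BP3 (-1.59) and the SIK1 copy (-0.94). NABP1 ranked 31 and LMBR1L 45. Without the 5 CPM minimum, SIK1, CPEB4, FRK, NABP1 and LMBR1L ranked 14, 19, 23, 126 and 183 of 20192 genes tested in RPF. The called genes next in rank after FRK were NKIRAS1 (-0.80) and HAL (-0.77), close to FRK at -0.82.

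By the change in translational efficiency (TE, footprints relative to Input, an interaction term in edgeR), the order was different. NABP1 ranked 4 among 9797 genes with a mean of at least 5 CPM in each assay, at -0.85 ± 0.17 (SE). SIK1 followed at -0.81 ± 0.15 (SE) and LMBR1L at -0.77 ± 0.19 (SE), with ranks 6 and 7. CPEB4 (-0.73 ± 0.13, SE) ranked 11 and FRK (-0.71 ± 0.14, SE) ranked 14. The 5 values lie within 1 SE of each other, so the order among them is not resolved. The called genes between LMBR1L and CPEB4 were TBC1D25 (-0.75), FHIP2A (-0.74) and HAL (-0.74). Without the 5 CPM minimum, the ranks of the 5 genes in TE were between 60 and 116 of 13395.

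**Figure D2:**
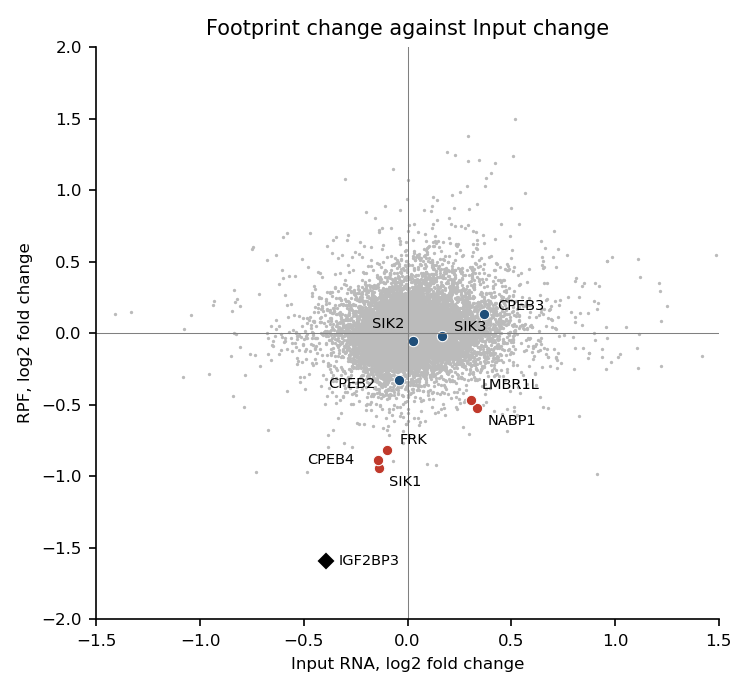
RPF log2 fold change (y axis) against Input log2 fold change (x axis), siIGF2BP3 against siControl, for the 13395 genes tested in both assays (gray; 1 gene lies outside the axes), with the chosen genes in red, the paralogues in blue and IGF2BP3 as a black diamond. SIK1, CPEB4 and FRK sit together at Input changes of -0.14 to -0.10, whereas NABP1 and LMBR1L sit together at 0.31 to 0.33.

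To ask whether the paralogues moved too, SIK2, SIK3, CPEB2 and CPEB3 were tested in the same fits over all genes (edgeR quasi-likelihood test, Benjamini-Hochberg adjustment). None of the 4 was called in any of the 3 comparisons. The share of genes called was 5.96% of 14759 in RNA, 1.66% of 20192 in RPF and 2.17% of 13395 in TE, so 0 of 4 is near the background. At an unadjusted p under 0.05, CPEB2 passed in RPF and SIK3 and CPEB3 in RNA. The share of all genes that passed at that unadjusted threshold was not counted, so nothing is read from this. DESeq2 called none of them in RPF and neither SIK2 nor SIK3 in RNA or TE, where it gave no adjusted p for CPEB2 and CPEB3.

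SIK2 footprints differed little between conditions. It was at 28.4, 25.7 and 23.2 CPM in siControl Input against 27.01, 27.1 and 27.5 CPM in siIGF2BP3 Input. In RPF it was at 27.1, 26.3 and 27.4 CPM with siControl against 25.4, 25.6 and 26.0 CPM with siIGF2BP3. The siIGF2BP3 footprints were lower in each library, by a small amount. The RPF log2 fold change was -0.05 (95% interval -0.17 to 0.07, adjusted p = 0.686, edgeR), and the Input value was 0.03 (-0.14 to 0.20, adjusted p = 0.892, edgeR).

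SIK3 was at 28.7, 27.9 and 26.1 CPM in siControl Input against 33.3, 30.7 and 32.1 CPM in siIGF2BP3 Input. Its footprints were at 19.3, 20.9 and 19.6 CPM in siControl and overlapped with 18.7, 19.4 and 20.2 CPM in siIGF2BP3. The log2 fold change was -0.02 in RPF (95% interval -0.16 to 0.13, adjusted p = 0.97, edgeR) and 0.16 in Input (0.01 to 0.32, adjusted p = 0.215, edgeR). In TE the values were -0.08 for SIK2 (-0.29 to 0.14, adjusted p = 0.77, edgeR) and -0.18 for SIK3 (-0.39 to 0.03, adjusted p = 0.414, edgeR).

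CPEB2 and CPEB3 were measured with less depth, and their intervals are wide. CPEB2 had 55 to 210.83 counts per RPF library and CPEB3 21 to 55.5, against 68 to 346 for CPEB4. CPEB2 was at 6.69, 6.23 and 4.64 CPM in siControl RPF against 4.22, 4.81 and 4.82 CPM in siIGF2BP3 RPF. Of the siControl libraries only replicate 3 fell within the siIGF2BP3 range. The RPF log2 fold change of CPEB2 was -0.33 (95% interval -0.65 to -0.01, adjusted p = 0.302, edgeR). In Input it was at 8.79, 7.91 and 9.13 CPM with siControl against 7.04, 11.5 and 7.04 CPM with siIGF2BP3, where replicate 2 stood above the rest (-0.04, -0.36 to 0.28, adjusted p = 0.917, edgeR).

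CPEB3 was at 1.76, 1.41 and 1.73 CPM in siControl RPF against 1.61, 1.80 and 1.86 CPM in siIGF2BP3 RPF. These ranges overlapped, with a log2 fold change of 0.13 (95% interval -0.16 to 0.43, adjusted p = 0.794, edgeR). Its Input level was 4.63, 5.07 and 4.44 CPM in siControl and 6.86, 5.58 and 6.60 CPM in siIGF2BP3. That difference did not pass the adjusted threshold (0.37, 0.05 to 0.69, adjusted p = 0.166, edgeR). In TE, CPEB2 was at -0.28 (-0.79 to 0.23, adjusted p = 0.626, edgeR) and CPEB3 at -0.23 (-0.69 to 0.23, adjusted p = 0.688, edgeR). Single libraries decided the TE value of CPEB2, which was 0.0098 without siIGF2BP3 Input replicate 2 and -0.41 without siControl RPF replicate 3. Its Input value also turned, from -0.33 without replicate 2 of siIGF2BP3 Input to 0.08 when replicate 3 was left out instead. The fourth family member, CPEB1, did not exceed 0.0663 CPM in Input and 0.0828 CPM in RPF and was not tested.

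Before knockdown the 9 genes differed widely in how many footprints they carried for their transcript level. The RPF/Input ratio of a gene is its RPF CPM over its mean Input CPM in the same condition, and the median of the 13395 genes tested in TE was 0.901 in siControl. CPEB4 had the lowest ratio of the 9, at 0.194, 0.212 and 0.206 by RPF library (mean 0.202 ± 0.011 SD, n = 2), which is percentile 7.45 of those genes. CPEB3 followed at 0.353 ± 0.029 (SD, n = 2) and NABP1 at 0.370 ± 0.030 (SD, n = 2), percentiles 17.98 and 19.4, and these neighbours did not differ beyond their spread. LMBR1L was at 0.560 ± 0.019 (SD, n = 2), percentile 31.6.

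The other members lay nearer to the median gene. CPEB2 (0.704 ± 0.103, SD, n = 2) and SIK3 (0.716 ± 0.024, SD, n = 2) did not differ beyond their spread, at percentiles 40.3 and 40.9. FRK was at 0.941 ± 0.012 (SD, n = 2) and SIK2 at 1.05 ± 0.01 (SD, n = 2), percentiles 51.8 and 56.2. SIK1 was at 0.818 ± 0.007 (SD, n = 2) as deposited, but at 0.654 ± 0.006 (SD, n = 2) with both loci added, which moves it from percentile 46.3 to 37.3. The 5 chosen genes thus started from ratios between 0.202 and 0.941. The paralogues lay between 0.353 and 1.05, a range that overlaps but reaches less low.

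After knockdown the ratio was lower in each of the 5 chosen genes. CPEB4 was at 0.098, 0.113 and 0.133 by siIGF2BP3 RPF library, NABP1 at 0.160, 0.203 and 0.203, and LMBR1L at 0.292, 0.340 and 0.302. SIK1 with both loci added was at 0.442, 0.314 and 0.326, and FRK at 0.472, 0.611 and 0.555. No siIGF2BP3 value of these 5 reached a siControl value of the same gene, as the choice of genes fixes. Of the 4 paralogues 3 were also lower without overlap: SIK2 (1.02 to 1.06 in siControl and 0.934 to 0.955 in siIGF2BP3), SIK3 (0.699 to 0.756 and 0.584 to 0.630) and CPEB3 (0.298 to 0.373 and 0.254 to 0.294). CPEB2 overlapped (0.539 to 0.777 and 0.495 to 0.565). Of the 13395 genes tested in TE, 29% had all 3 siIGF2BP3 ratios below all 3 siControl ratios. Dividing by the mean Input leaves out the spread between Input libraries.

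**Figure D3:**
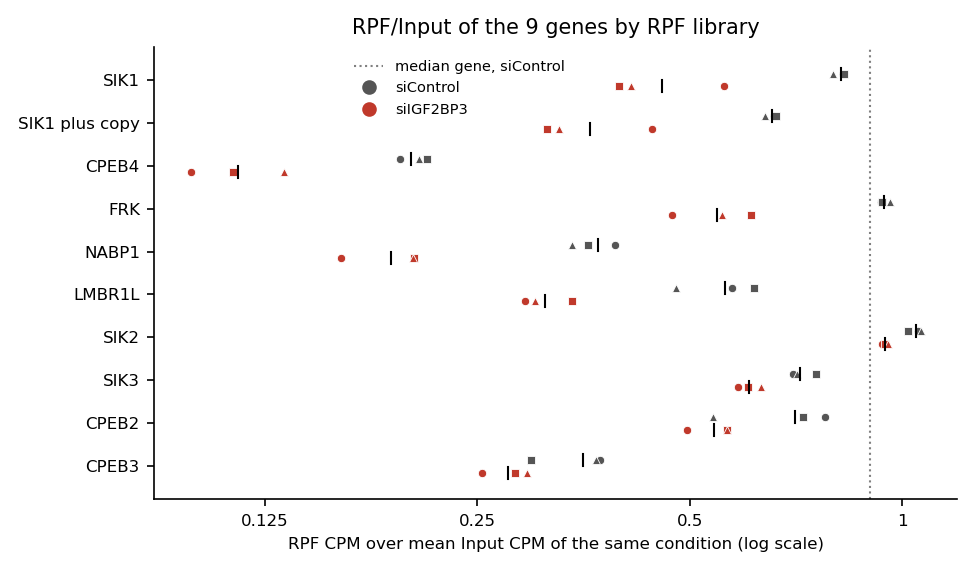
RPF CPM over the mean Input CPM of the same condition (x axis, log scale) for each RPF library of siControl (gray) and siIGF2BP3 (red), with the symbol for the replicate number, black ticks for the means and a dotted line at the median gene in siControl (0.901). SIK1 is shown as deposited and with the copy added; the red points lie below the gray ones without overlap in all genes but CPEB2, with narrow gaps in SIK2, SIK3 and CPEB3.

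Footprint levels can be compared between genes only per length. The counts cover all exons of a gene, untranslated regions included, while the length used is that of the coding sequence alone. The values are therefore not densities of footprints within the coding sequence. Per kilobase of the annotated coding sequence in siControl RPF, FRK was at 10.9 ± 0.1 CPM (SD, n = 2), SIK1 at 10.7 ± 0.1 (SD, n = 2) and NABP1 at 10.5 ± 0.8 (SD, n = 2), with no difference between SIK1 and NABP1 beyond their spread. The summed SIK1 value was 21.5 ± 0.2 CPM (SD, n = 2), the highest of all. SIK2 followed at 9.70 ± 0.08 (SD, n = 2), and CPEB4 at 5.21 ± 0.28, SIK3 at 4.81 ± 0.16 and LMBR1L at 4.79 ± 0.16 (each SD, n = 2) formed a group within which SIK3 and LMBR1L were not resolved. CPEB2 (1.95 ± 0.29, SD, n = 2) and CPEB3 (0.794 ± 0.065, SD, n = 2) were the lowest. In siIGF2BP3, SIK2 was at 9.23 ± 0.10 CPM per coding kilobase (SD, n = 3). FRK (6.08 ± 0.78, SD, n = 3), NABP1 (6.98 ± 0.91, SD, n = 3) and the deposited SIK1 value (5.62 ± 1.099, SD, n = 3) were lower. Their means had been above SIK2 in siControl, though for NABP1 not beyond the spread. The summed SIK1 value in siIGF2BP3 was 11.2 ± 2.2 CPM (SD, n = 3), with a mean above SIK2 in both conditions.

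The selection used no feature of the transcript sequence, and the 9 genes differed widely in such features. By the canonical transcript of GENCODE, long 5′ untranslated regions stood out in 3 of the chosen genes: 1385 bases in CPEB4, 580 in FRK and 479 in NABP1, at percentiles 99.7, 95.3 and 92.6 of 11773 protein-coding genes tested in TE, where the median was 131 bases. LMBR1L (292 bases) was at percentile 80.9, but SIK1 (136 bases) was near the median, and the paralogues had 13 to 193 bases. Upstream ATG triplets in that region numbered 9 in CPEB4, 3 in FRK, 1 each in SIK1 and LMBR1L and 0 in NABP1. Among the paralogues CPEB3 had 2, and SIK2, SIK3 and CPEB2 had 0. Of the 11773 protein-coding genes, 61.2% had none.

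Over all genes, these features went with small differences in the medians. The median RPF log2 fold change was 0.02 in the 2944 genes with the shortest 5′ untranslated regions and -0.01 in the 2943 with the longest, and the medians in TE were 0.05 and -0.02. By coding length the median in TE was 0.08 in the shortest 2944 and -0.06 in the longest 2943. By coding GC content the median in RPF was between -0.04 and 0.07 over 4 groups of genes, with 0.07 in the group highest in GC. The 3′ untranslated regions ranged from 533 bases in LMBR1L to 11265 in FRK (percentiles 27.2 and 99.3), with 5843 in CPEB4 and 5520 in its paralogue CPEB3. Coding sequence ran from 615 bases in NABP1 to 4110 in SIK3. Coding GC content was 63.9% in SIK1 and 43.7% in NABP1, percentiles 90.0 and 20.6.

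The genes most like each chosen gene were found by the root mean square (RMS) difference of log2 values (pseudocount 0.5 CPM) over the 12 libraries, with each assay centred on siControl, among 9400 protein-coding genes with a mean of at least 5 CPM in each assay. Since all genes share the same libraries, this is a description. For SIK1 they were NKIRAS1 (RMS 0.143), CPEB4 (0.183) and PCMTD1 (0.190), and for CPEB4 they were FRK (0.135), FRS2 (0.140) and ANKRD46 (0.148). For FRK they were FRS2 (0.116), PHTF2 (0.120) and ANKRD46 (0.135). NABP1 was closest to FAM13A (0.101), GRAMD2B (0.101) and FHIP2A (0.122), and LMBR1L to CDC25C (0.133), ZNF337 (0.133) and TGIF1 (0.134). The sets of CPEB4 and FRK shared FRS2 and ANKRD46. No gene was shared between the sets of SIK1, CPEB4 and FRK and those of NABP1 and LMBR1L. The search spans the Input libraries, in which these groups of genes differ, so nothing is read from that. The neighbours of NABP1 and LMBR1L had Input log2 fold changes of 0.23 to 0.37 and RPF values of -0.52 to -0.31, a direction that the search for like values fixes.

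No exon of SIK1, SIK3, CPEB3, CPEB4, FRK or LMBR1L was shared with another gene of the files. SIK2 shared 150 exonic bases with PPP2R1B on the opposite strand, which had an RPF log2 fold change of -0.05, as SIK2 did. Whether reads were counted by strand is not stated. The genes that overlap CPEB2 and NABP1 were at or close to 0 CPM.

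To place the 5 genes in their pathways, 76 other genes in 5 lists were examined, of which 68 could be tested. In Input 3 rose and 1 fell, in RPF 0 rose and 1 fell, and in TE none was called (12 at an unadjusted p under 0.05, edgeR). The share of all genes at that unadjusted threshold was not counted. Nothing is therefore read from such counts, here or for the single lists below. Over all genes tested 5.96%, 1.66% and 2.17% were called, so the lists were called about as often as genes at large. None of the list medians in RPF lay outside -0.04 to 0.09, beside 0.01 for all genes.

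The SIK list holds the upstream kinase complex (STK11, STRADA, STRADB, CAB39, CAB39L), the substrates (CRTC1 to CRTC3 and class IIa histone deacetylases), protein kinase A, and the related kinases of the AMPK family. Of 26 genes tested, HDAC5, a class IIa deacetylase that SIKs phosphorylate, rose in Input (0.26 ± 0.06 SE, adjusted p = 0.00772, edgeR), as did MARK3, an AMPK-related kinase (0.22 ± 0.06 SE, adjusted p = 0.0181, edgeR). PRKAR1A, a regulatory subunit of protein kinase A, fell in Input by 0.15 ± 0.04 (SE, adjusted p = 0.042, edgeR). None of the 26 was called in RPF or TE. The most negative RPF values were those of the AMPK-related kinases NUAK2 (-0.53 ± 0.19 SE, adjusted p = 0.235, edgeR) and SNRK (-0.23 ± 0.08 SE, adjusted p = 0.199, edgeR), and NUAK2 was low, at 2.93 CPM in siControl RPF.

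Of 17 tested genes that act with CPEBs or on cytoplasmic poly(A) tails, CPSF1, a subunit of the cleavage and polyadenylation specificity factor, rose in Input (0.20 ± 0.06 SE, adjusted p = 0.0393, edgeR) and none was called in RPF. EIF4ENIF1, which carries the cap-binding protein eIF4E, was at -0.22 ± 0.07 in RPF (SE, adjusted p = 0.176, edgeR) and CNOT8, a deadenylase subunit, at -0.17 ± 0.09 (SE, adjusted p = 0.408, edgeR). Of 8 tested genes of the Src family and FRK partners none was called in RNA, RPF or TE (2, 0 and 1 at an unadjusted p under 0.05, edgeR). SRC itself was at 0.01 ± 0.06 (SE) in RPF.

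Among the 10 genes of the SOSS complex and single-strand DNA binding, RPA1, the large subunit of replication protein A, fell in RPF by 0.27 ± 0.04 (SE, adjusted p = 0.0316, edgeR) with an Input change of 0.01. INIP, a SOSS subunit that works with NABP1, was at -0.15 ± 0.08 in RPF (SE, adjusted p = 0.404, edgeR). Of 7 genes of the LMBR1 family and partners none was called in RNA, RPF or TE (0, 1 and 2 at an unadjusted p under 0.05, edgeR). The lowest RPF values there were LMBRD2, a relative of LMBR1L (-0.25 ± 0.08 SE, adjusted p = 0.198, edgeR), and LRP6, a Wnt coreceptor (-0.09 ± 0.08 SE, adjusted p = 0.683, edgeR).

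These counts depended on single libraries. Leaving out any of the other 5 RPF libraries left 0 list genes called in RPF, RPA1 included. In Input, 4 list genes were called without siControl Input replicate 1, and 1 or 2 without each of the others. The widest change came from siIGF2BP3 RPF replicate 1. Its removal leaves 2 libraries that differ by little more than counting noise, so the calls that follow may rest on a technical spread. Without replicate 1, 3410 of 20615 genes (16.5%) were called in RPF. Among them were 13 list genes, of which 6 fell and 7 rose. The falls were NUAK2 (-0.64), RPA1 (-0.25), EIF4ENIF1 (-0.20), TOB1 (-0.20), MARK2 (-0.17) and PABPC1 (-0.12), and PABPC4 (0.29) and STRADB (0.31) were the largest rises. In TE 1350 of 13479 genes (10%) were then called and 8 list genes were among them, 4 in each direction, a share near the background. They include the SIK substrate CRTC2 at -0.43 ± 0.14 (SE, adjusted p = 0.0446, edgeR). The paralogues were not called without that library in RPF or TE, with CPEB2 at -0.31 in RPF (adjusted p = 0.146, edgeR).

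**Figure D4:**
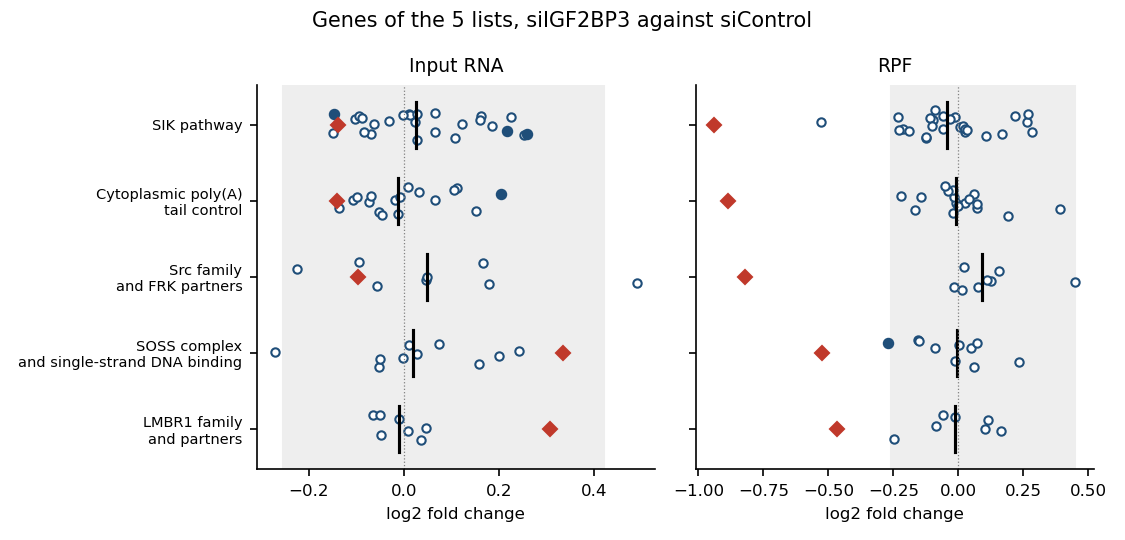
Log2 fold change (x axis) of siIGF2BP3 against siControl in Input RNA (left) and RPF (right) for the tested genes of each list (y axis), filled where the adjusted p was under 0.05, with the list median as a black bar, the chosen gene that the list belongs to as a red diamond, and the range from percentile 5 to percentile 95 of all genes shaded. In RPF the diamonds lie left of the shading and, NUAK2 and RPA1 apart, the list genes lie within it or to its right.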

How the data were processed

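The submitters' processing notes name cutadapt, STAR, featureCounts and the build hg38. Their versions, and how shared or stranded reads were handled, are not given in the sources used here. The authors deposited estimated counts, many of them fractions, without scaling for depth. They were rounded for testing (at most 0.0445% of a library total). Symbols came from GENCODE release 44 (99.2% of identifiers matched), coding sequence from hg38.

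siIGF2BP3 was compared with siControl in edgeR 4.0.16 (R 4.3.3) by quasi-likelihood tests with filterByExpr, TMM factors within each assay and Benjamini-Hochberg adjustment (0.05): RNA (6 Input libraries), RPF (6 RPF libraries) and TE (interaction, 12 libraries). CPM are scaled to library totals. Without molecular identifiers, errors were taken from the spread among libraries. Fits were tested on simulated data. These held neither the near-equal siControl RPF libraries nor the outlying siIGF2BP3 RPF replicate 1, so they do not show how the fits behave with either. The members and lists were chosen with earlier results of these data known. Named genes are the members, IGF2BP3, list genes called or lowest in RPF, the nearest patterns, the next ranks and overlapping genes; other list genes named without siIGF2BP3 RPF replicate 1, and the pseudogene, were chosen after their values were seen. 1 gene that this rule names is not reported here; it stayed in the list counts and medians. Alternatives were DESeq2 1.42.0, other factors and filters, blocks, summed and left-out libraries.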

Additional observations from a re-analysis of the deposited data

How the results depend on the processing

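The 5 chosen genes kept the direction of their changes in each alternative run. Their RPF values were from -1.11 to -0.38 when libraries were left out. The fold changes of these 5 genes moved by less than the spread between replicates, but for left-out libraries this is fixed in advance. Leaving out 1 of 3 libraries cannot move a group mean by as much as their SD. These values also chose the genes, so nothing is read from their stability. No paralogue was called in RNA, RPF or TE under the alternatives that gave it an adjusted p (DESeq2 gave CPEB2 and CPEB3 none in RNA and TE), though the sign of uncalled values near 0 turned in some fits. Counts over all genes were less stable. In RPF, where 336 genes were called, DESeq2 called 667, the sum of siControl RPF replicates 2 and 3 gave 14, and leaving out 1 library gave 11 to 3410. In TE, where 291 were called, a block for each culture gave 121, the summed libraries 143 and leaving out 1 library 126 to 1350. In RNA, where 879 were called, leaving out 1 library gave 444 to 907 (444 without siControl Input replicate 3, 487 without siIGF2BP3 Input replicate 3). Of the list genes, 4 were called in RNA (1 to 4 with a library left out). In RPF 1 was called, against 4 with DESeq2, 3 at a mean of at least 5 CPM, 2 with no filter, 0 with the summed libraries, and 0 to 13 with a library left out. In TE 0 were called, and 0 to 8 with a library left out.

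The replicate numbers showed little pairing of the libraries. Between conditions, correlations of the deviations of same-numbered libraries were between -0.04 and 0.04 in Input and between 0.05 and 0.15 in RPF. Between Input and RPF they were from -0.01 to 0.01 in siControl and from -0.20 to -0.10 in siIGF2BP3. With the replicate block, the RNA comparison called 931 genes, RPF 379 and TE 228, with 0 of the list genes in RPF. TMM factors moved the baseline RPF/Input ratio of SIK1 to 0.803, of SIK2 to 1.03 and of FRK to 0.924, beyond the spread between 2 samples. Depth limits CPEB3 most (21 to 55.5 counts per RPF library) and, with 2 distinct siControl RPF samples, the SDs of all footprint levels.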
